A study of Mus musculus with 12 samples.

Results

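The receptors for vascular endothelial growth factors (VEGF) and for angiopoietins, with their co-receptors and 3 VEGF ligands, were read in the hearts of Balb/c mice after a compound labelled DMA. The group was 10 genes, chosen by name: the receptors Flt1, Kdr, Flt4, Tek and Tie1, the co-receptors Nrp1 and Nrp2, and the ligands Vegfa, Vegfb and Vegfc. Each was represented by the brightest probe that the platform annotation gave its symbol, and each turned out to have 1 probe, so 10 of 36227 probes and 10 of 18027 genes with a single symbol are described. Mice of this inbred strain received 30 mg DMA per kg body weight by gavage, or the vehicle DMSO, and hearts were taken 24 h or 48 h later. The labels do not expand DMA and name no genetic change, age or sex. This gave 4 groups of 3 arrays: DMSO 24 h, DMA 24 h, DMSO 48 h and DMA 48 h. The labels call the 3 arrays biological replicates, whereas the design text says that RNA was isolated from pooled animals, so the p-values below measure only the spread between these samples, which may be technical. All values are deposited log2 intensities. A difference of 1 on this scale is a doubling of intensity, and every fold statement below is on the log2 scale.

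VEGF ligands bind receptor tyrosine kinases on endothelial cells. Kdr (VEGFR-2) carries most of the growth, migration and permeability signal of Vegfa, Flt1 (VEGFR-1) binds Vegfa and Vegfb tightly with weak kinase output, and Flt4 (VEGFR-3) receives Vegfc and is best known from lymphatic vessels. The neuropilins Nrp1 and Nrp2 are co-receptors that also bind semaphorins, and Tek (Tie2) with its partner Tie1 receives the angiopoietins, which set vessel stability. In the heart these receptors lie mainly in the dense capillary bed between the cardiomyocytes, which themselves are a source of VEGF.

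No difference between DMA and DMSO passed the test for any of the 10 genes. With limma and Benjamini-Hochberg adjustment over 35401 probes, 0 of 10 passed an adjusted p of 0.05 at 24 h or at 48 h, beside 0.0% of all probes at each time. Without adjustment, 0 of 10 again had a p under 0.05 at both times, where 3.03% of all probes passed at 24 h and 1.4% at 48 h. Under some alternatives a member crossed this unadjusted level, such as Tek at 24 h with the replicate number as a block (limma unadjusted p = 0.0357), and none crossed the adjusted one. With that block, 1708 of 35401 probes crossed the unadjusted level at 24 h. At 24 h the receptors and co-receptors mostly read higher with DMA (4 of 5 and 2 of 2) and the 3 ligands lower, a contrast that was lost without 1 array, DMA 24 h replicate 3. At 48 h, 9 of the 10 read lower with DMA. These signs rested on few arrays, as the values of each array below show.

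One array stood apart from the rest. For DMA 24 h replicate 3 the correlation with the remaining arrays of its time (their median) was 0.742, whereas the other arrays reached 0.927 to 0.963, and 503 of its values lay at its lowest level. DMA 48 h replicate 3 drifted along the probe numbers, from 0.201 above the other 48 h arrays at the first probes to -1.148 at the last. Array medians were 6.03 to 6.04 at 24 h and 6.35 to 6.36 at 48 h, so each time appeared to have been scaled on its own, and levels at the 2 times are described without a test. Of 21 listed endothelial markers, 19 were tested. Among them, Pecam1, an endothelial adhesion molecule, read 3.55 to 10.2 over the 12 arrays. Cdh5, the cadherin of endothelial junctions, read 3.30 to 5.32 over 11, and its mean of 4.42 lay below the median of all probes tested, 6.16. Of 12 cardiomyocyte markers only 3 could be tested, and Myh6, the cardiac myosin heavy chain, read 3.84 to 9.82. Its mean was 6.49 and that of Ryr2 6.025, both near that median, whereas Ttn averaged 14.2. In bulk hearts, fewer cells of a type and less RNA per cell cannot be told apart.

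The 3 ligand genes read low together on DMA 24 h replicate 3, which was the lowest 24 h array for 27.1% of all probes. The sequences just before their gene starts were chosen for printing on that ground. Any part of these sequences in those values was not tested. RefSeq promoter sequences of GRCm38.p6 were found for all 10 genes. The 250 bases before the start are printed 5′ to 3′ on the gene's strand, with each GC box (GGGCGG or its reverse CCGCCC, the letters bound by Sp1-type factors) in capitals: Vegfa at chr17:46032378-46032627 on the minus strand, Vegfb at chr19:6987652-6987901 on the minus strand and Vegfc at chr8:54077282-54077531 on the plus strand.
Vegfa: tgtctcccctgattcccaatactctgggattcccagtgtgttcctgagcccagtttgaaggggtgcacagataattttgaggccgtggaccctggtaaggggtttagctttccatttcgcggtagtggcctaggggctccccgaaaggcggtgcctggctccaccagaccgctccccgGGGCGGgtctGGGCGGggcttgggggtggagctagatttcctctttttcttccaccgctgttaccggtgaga
Vegfb: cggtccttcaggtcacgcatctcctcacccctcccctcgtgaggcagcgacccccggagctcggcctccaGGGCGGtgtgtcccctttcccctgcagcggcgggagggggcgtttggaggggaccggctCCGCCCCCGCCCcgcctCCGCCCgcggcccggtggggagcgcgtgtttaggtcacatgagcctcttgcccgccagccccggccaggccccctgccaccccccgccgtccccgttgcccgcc
Vegfc: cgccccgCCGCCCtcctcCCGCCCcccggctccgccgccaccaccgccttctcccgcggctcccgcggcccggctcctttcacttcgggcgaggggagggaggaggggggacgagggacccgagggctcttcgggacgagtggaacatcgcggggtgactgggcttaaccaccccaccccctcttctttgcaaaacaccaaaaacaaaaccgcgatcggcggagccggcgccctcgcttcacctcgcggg
Vegfa held 2 GC boxes in this window, Vegfb 4 and Vegfc 2, and their GC contents were 59.2%, 76.4% and 71.6%. Over all members, 8 of 10 windows held a GC box, all but those of Tek and Tie1, whereas 32.7% of 32851 promoters of the same length did. The letters ACGTG or CACGT, a form of the core that hypoxia-inducible factors bind, were in none of the 10 windows and in 16.6% of all promoters. Other forms of that core, such as GCGTG, which the Vegfb window above holds, were not counted. The longer CACGTG, which contains ACGTG, was in 6.02% of all promoters and in no member. TATAAA or TTTATA was found only in the Flt1 window (12.4% of all). CCGGAA or TTCCGG, the core of the ETS factors with flanking letters, was found only in the Kdr window (12% of all). The shorter core without these flanks was not counted. A match is a description of letters and not a measured site.

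**Figure D1:**
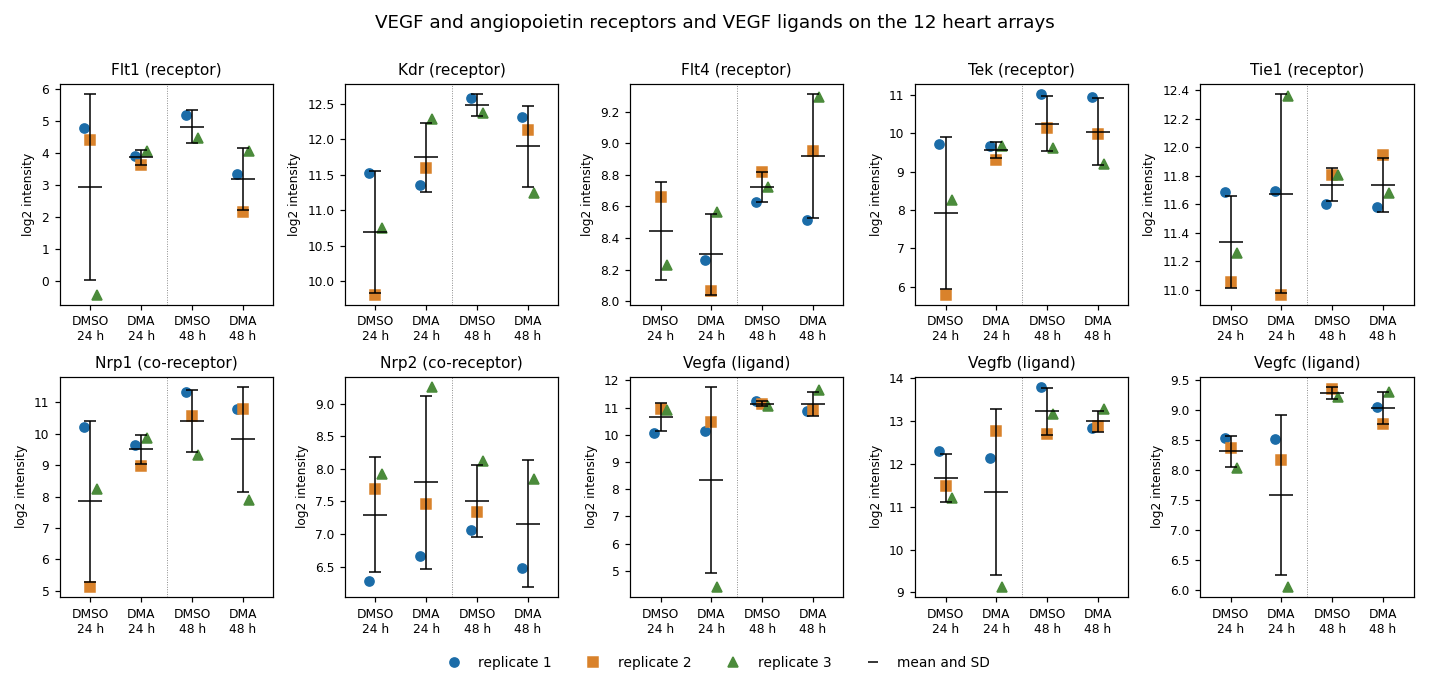
Log2 intensity of each gene on every array, by group (DMSO or DMA at 24 h or 48 h), with replicate numbers as symbols and the group mean with its SD as bars; the vertical scale differs between genes. Tek and Nrp1 on DMSO 24 h replicate 2 (5.80 and 5.13) and Vegfa on DMA 24 h replicate 3 (4.41) lie far from the rest of their groups.

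Kdr, the main signalling receptor for Vegfa (chr5:75932827-75979072 in GRCm38.p6), read 11.53, 9.82 and 10.75 with DMSO at 24 h and 11.36, 11.60 and 12.29 with DMA, in the order of replicates 1, 2 and 3. The groups overlapped, since DMSO replicate 1 was above DMA replicate 1. The mean went from 10.70 ± 0.86 to 11.75 ± 0.48 (SD, n = 3 each), a difference of 1.05 (SE 0.50; 95% interval -0.06 to 2.16; limma adjusted p = 0.871). At 48 h Kdr read 12.59 and 12.38 with DMSO, with no value on replicate 2, and 12.32, 12.14 and 11.25 with DMA. All 3 DMA values lay below both DMSO values, yet replicate 1 differed by only -0.27 and replicate 3 by -1.13. The fitted difference was -0.58 (SE 0.56; 95% interval -1.82 to 0.66; limma adjusted p = 1.0), and it was -0.26 without DMA 48 h replicate 3.

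Flt1, the tight-binding receptor with weak kinase output (chr5:147561604-147726438), was the dimmest member and the only one whose mean lay below the median of all probes tested, 6.16. It read 4.79, 4.42 and -0.44 with DMSO at 24 h, and the last of these was the lowest value on its array. With DMA at 24 h it read 3.90, 3.62 and 4.07. DMA minus DMSO was -0.89 and -0.80 in replicates 1 and 2 and 4.51 in replicate 3. The fitted 24 h difference of 0.94 (SE 1.15; limma adjusted p = 0.883) therefore took its sign from the floor value, and it was -0.74 with that value set to missing. At 48 h Flt1 read 5.19 and 4.46 with DMSO (none on replicate 2) and 3.35, 2.14 and 4.05 with DMA. The groups did not overlap, and the difference was -1.64 (SE 1.29; 95% interval -4.50 to 1.22; limma adjusted p = 1.0). This standard error drew on the spread shared with the 24 h arrays, which held the floor value. It was 0.63 with the 6 arrays of 48 h alone and 0.56 with floor values set to missing. The adjusted test was not passed in either case.

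Kdr and Flt1 were the only 2 of 10 members whose 48 h groups did not overlap, both with DMA below. This happened in 2.79% of all probes tested, and in 5.67% of the 3600 probes that, like both of these, had 2 DMSO and 3 DMA values. No member had DMA above DMSO without overlap at 48 h (4.42% of all probes), and at 24 h 0 of 10 were free of overlap in either direction (7.99% of all probes).

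Flt4, the receptor of Vegfc in lymphatic vessels (chr11:49609679-49652739), varied little. It read 8.66 and 8.23 with DMSO at 24 h (none on replicate 1) and 8.26, 8.06 and 8.57 with DMA. At 48 h it read 8.63, 8.82 and 8.72 with DMSO and 8.51, 8.95 and 9.29 with DMA. The groups overlapped at both times. The differences were -0.15 (SE 0.38; 95% interval -0.99 to 0.69) at 24 h and 0.20 (SE 0.34; 95% interval -0.56 to 0.95) at 48 h, the only positive difference among the members at 48 h. The limma adjusted p was 0.938 at 24 h and 1.0 at 48 h.

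Tek, the angiopoietin receptor (chr4:94739086-94874976), spread more widely than Tie1, the only other receptor with 12 values. Its values ran from 5.80 to 11.01, and those of Flt1, which had 11, from -0.44 to 5.19. With DMSO at 24 h Tek read 9.72, 5.80 and 8.25, and with DMA 9.67, 9.31 and 9.68. The 3 DMA arrays lay close together (SD 0.21, n = 3) and inside the DMSO range (SD 1.98, n = 3), and the difference was 1.63 (SE 0.83; 95% interval -0.19 to 3.46; limma adjusted p = 0.871). Without DMSO 24 h replicate 2 it was 0.57. At 48 h Tek read 11.01, 10.13 and 9.61 with DMSO and 10.94, 9.98 and 9.20 with DMA. Each pair of the same number was slightly lower with DMA, with differences of -0.068, -0.15 and -0.41, an event seen in 11.1% of probes with 6 values. The fitted difference was -0.21 (SE 0.83; 95% interval -2.04 to 1.61; limma adjusted p = 1.0).

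Tie1, the orphan partner of Tek (chr4:118471191-118489849), varied less than Kdr or Tek. It read 11.69, 11.06 and 11.26 with DMSO at 24 h and 11.70, 10.97 and 12.36 with DMA, and only DMA replicate 3 stood out. The difference was 0.34 (SE 0.38; 95% interval -0.50 to 1.18; limma adjusted p = 0.878), and -0.0028 without that array. At 48 h it read 11.60, 11.81 and 11.81 with DMSO and 11.58, 11.95 and 11.68 with DMA. The difference was -0.0015 (SE 0.38), and its 95% interval of -0.84 to 0.84 still allowed changes of most of 1 log2 unit in either direction.

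Nrp1, a co-receptor of Vegfa and of class 3 semaphorins (chr8:128358591-128505476), read 10.20, 5.13 and 8.23 with DMSO at 24 h. With DMA it read 9.64, 8.98 and 9.87. As for Tek, the DMA arrays were close together (SD 0.46, n = 3) and the DMSO arrays were spread (SD 2.56, n = 3), and the groups overlapped. The difference was 1.65 (SE 1.15; 95% interval -0.87 to 4.17; limma adjusted p = 0.871) and 0.28 without DMSO 24 h replicate 2. At 48 h Nrp1 read 11.32, 10.55 and 9.34 with DMSO and 10.78, 10.79 and 7.90 with DMA. The difference of -0.58 (SE 1.15; 95% interval -3.10 to 1.94; limma adjusted p = 1.0) became 0.38 without DMA 48 h replicate 3.

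Nrp2, the co-receptor that favours Vegfc and Flt4 (chr1:62703317-62818692), differed between replicate numbers more than between treatments at 24 h. It read 6.28, 7.68 and 7.92 with DMSO and 6.65, 7.46 and 9.26 with DMA. The means of same-numbered pairs spanned 2.12, whereas the largest difference inside a pair was 1.34. At 48 h it read 7.05, 7.34 and 8.13 with DMSO and 6.47 and 7.85 with DMA (none on replicate 2). The differences were 0.50 (SE 0.72; 95% interval -1.10 to 2.09) at 24 h and -0.35 (SE 0.80; 95% interval -2.13 to 1.43) at 48 h, with limma adjusted p of 0.896 and 1.0. The 24 h value was -0.24 without DMA 24 h replicate 3.

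The ligands followed one array at 24 h. Vegfa, the principal angiogenic factor (chr17:46016993-46032377), read 10.06, 10.96 and 10.92 with DMSO and 10.16, 10.48 and 4.41 with DMA. Replicates 1 and 2 differed by 0.09 and -0.48, and replicate 3 by -6.51. The fitted difference of -2.30 (SE 1.23; 95% interval -4.99 to 0.40; limma adjusted p = 0.871) was -0.33 without DMA 24 h replicate 3. At 48 h the 6 arrays were close, at 11.23, 11.14 and 11.05 with DMSO and 10.87, 10.90 and 11.64 with DMA, and the difference was -0.0059. Its standard error of 1.23 and 95% interval of -2.70 to 2.69 came from the spread shared with the 24 h arrays.

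Vegfb, a Flt1 ligand that is abundant in heart muscle (chr19:6982472-6987651), read 12.30, 11.49 and 11.21 with DMSO at 24 h and 12.13, 12.76 and 9.13 with DMA. DMA replicate 2 was the highest 24 h array and DMA replicate 3 the lowest. The difference was -0.33 (SE 0.77; 95% interval -2.02 to 1.37; limma adjusted p = 0.933), and 0.78 without DMA 24 h replicate 3. At 48 h Vegfb read 13.80, 12.71 and 13.18 with DMSO and 12.83, 12.89 and 13.27 with DMA. The groups overlapped, with a difference of -0.23 (SE 0.77; 95% interval -1.93 to 1.46).

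Vegfc, the lymphangiogenic ligand of Flt4 (chr8:54077532-54186454), read 8.53, 8.37 and 8.03 with DMSO at 24 h and 8.52, 8.17 and 6.05 with DMA. All 3 pairs were lower with DMA, with differences of -0.0097, -0.20 and -1.98, as in 9.05% of probes with 6 values at that time. Only the third of these was sizeable, and the fitted -0.73 (SE 0.57; 95% interval -2.0 to 0.55; limma adjusted p = 0.871) became 0.036 without DMA 24 h replicate 3. At 48 h Vegfc read 9.35 and 9.21 with DMSO (none on replicate 1) and 9.04, 8.77 and 9.30 with DMA. The difference was -0.25 (SE 0.64; 95% interval -1.67 to 1.18).

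**Figure D2:**
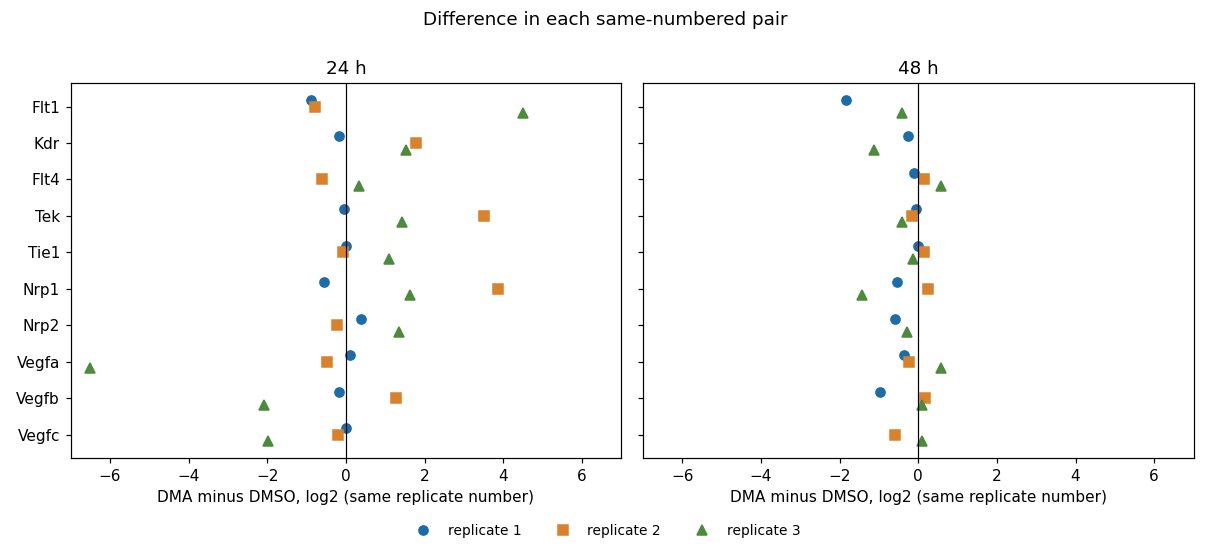
DMA minus DMSO in log2 for each pair of arrays with the same replicate number, with 24 h on the left and 48 h on the right, 1 row per gene. At 24 h the replicate 3 pair lies farthest from 0 for Flt1 (4.51), Vegfa (-6.51), Vegfb (-2.09) and Vegfc (-1.98), and the replicate 2 pair for Tek (3.52) and Nrp1 (3.86).

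Counted by role, 4 of 5 receptors and both co-receptors had a positive difference at 24 h, and 0 of 3 ligands did. The median over the 10 genes was 0.42, where 55.8% of all probes were above 0 with a median of 0.09. At 48 h, 1 gene was positive and 9 were negative, with a median of -0.24, beside 51.6% of all probes above 0 and a median of 0.01. Without DMA 48 h replicate 3 the 48 h split was 4 positive and 6 negative with a median of -0.26. Other arrays moved this split too. Without DMSO 48 h replicate 1, 2 of 5 receptors, 0 of 2 co-receptors and 2 of 3 ligands were positive. Without DMA 48 h replicate 1 these were 2 of 5, 1 of 2 and 1 of 3. Without DMA 24 h replicate 3 the 24 h signs of Tie1, Nrp2, Vegfb and Vegfc turned: 3 of 5 receptors, 1 of 2 co-receptors and 2 of 3 ligands were then positive, and the contrast between the roles was lost, although the total was again 6 to 4 (median 0.41). Without DMSO 24 h replicate 2 the total was 7 to 3 (median 0.24), with both co-receptors and all 5 receptors positive and 0 of 3 ligands.

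DMA 24 h replicate 3 was the highest 24 h array for Kdr, Tie1 and Nrp2 and the lowest for Vegfa, Vegfb and Vegfc. It was thus an extreme for 6 of 10 members, as it was for 70.7% of all probes. DMSO 24 h replicate 2 was the lowest for Kdr, Tek and Nrp1, a place it took for 17.8% of all probes. At 48 h, DMA replicate 3 was the lowest array for Kdr, Tek and Nrp1 and the highest for Flt4 and Vegfa, an extreme for 5 of 10 members and for 54.7% of all probes. DMSO 48 h replicate 1 was the highest for Flt1, Kdr, Tek, Nrp1 and Vegfb, a place it took for 14.2% of all probes.

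The 101 probes around a member by probe number showed smaller shifts in the cases below, although for Vegfa on DMA 48 h replicate 3 the sizes were similar. On DMSO 24 h replicate 2 their median deviation from the 24 h arrays was -0.05 around Nrp1, -0.08 around Tek and -0.10 around Kdr. On DMA 24 h replicate 3 it was 0.41 around Vegfa, -0.09 around Vegfb and 0.51 around Vegfc. On DMA 48 h replicate 3 it was -0.13 around Kdr, 0.30 around Nrp1 and 0.43 around Tek, both opposite in sign to the low values of those genes. It was also 0.43 around Vegfa, which read 11.64 there and 10.87 to 11.23 on the other 48 h arrays.

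**Figure D3:**
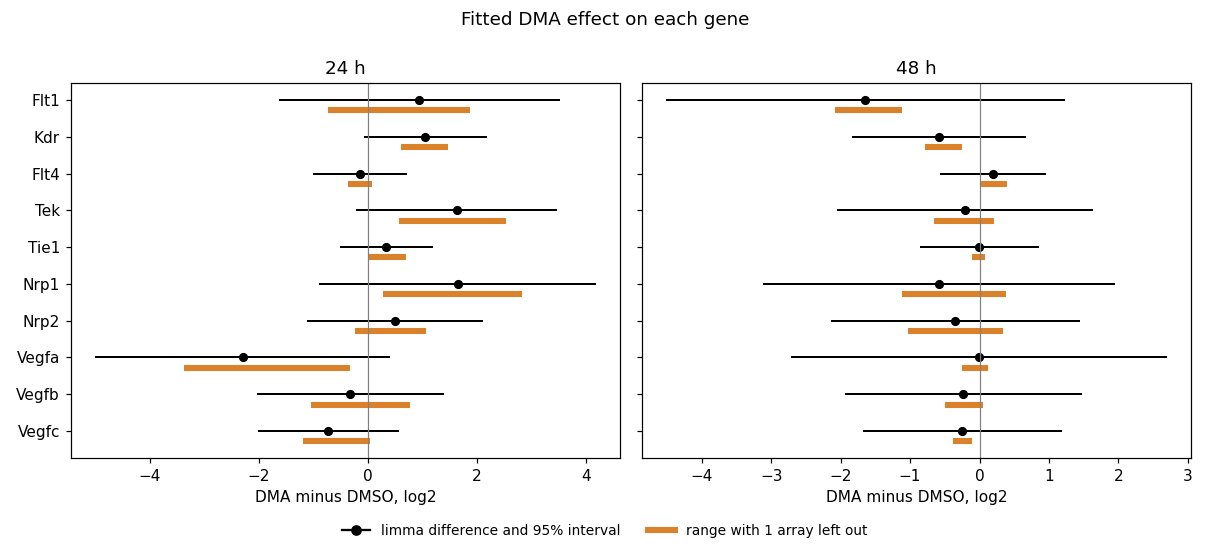
Fitted DMA minus DMSO in log2 for each gene at 24 h (left) and 48 h (right), as the limma difference with its 95% interval (black) and the range of that difference when 1 array is left out (orange). Every black interval includes 0, and the orange ranges stay on 1 side of 0 at 24 h for Kdr, Tek, Nrp1 and Vegfa and at 48 h for Flt1, Kdr, Flt4 and Vegfc.

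Whether the DMA effect differed between the times was tested by the interaction, 48 h minus 24 h. It was negative for Flt1 (-2.58), Nrp1 (-2.23), Tek (-1.84), Kdr (-1.63), Nrp2 (-0.84) and Tie1 (-0.34), and positive for Vegfa (2.29), Vegfc (0.48), Flt4 (0.34) and Vegfb (0.10). No member passed (0 of 10; limma adjusted p = 0.999 for each; 0.0% of all probes), nor did any at an unadjusted p under 0.05 (1.96% of all probes). Kdr had the smallest standard error among the 4 largest negative values, 0.75, and a 95% interval of -3.29 to 0.03.

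In the vehicle groups all 10 genes had a higher mean at 48 h than at 24 h, as had 74.1% of all probes. The gap was 2.55 for Nrp1, 2.33 for Tek, 1.90 for Flt1, 1.78 for Kdr and 1.56 for Vegfb, and 0.97 or less for the other 5. After the shift of the array medians between the times, 0.32, was taken off, 8 of 10 remained higher, all but Flt4 and Nrp2, beside 50.6% of all probes. Single arrays weighed on these gaps, as leaving out each DMSO array, a check added after the data were seen, shows. The Flt1 gap was 0.22 without DMSO 24 h replicate 3, which held the floor value, and no longer beyond the shift. The gaps of Nrp1 and Tek were 1.19 and 1.27 without DMSO 24 h replicate 2. The count beyond the shift ran from 7 to 10 with 1 DMSO array left out, from 7 without DMSO 24 h replicate 1 to 10 without DMSO 48 h replicate 1. The DMSO arrays at 24 h were also those with the lowest single values of Kdr, Tek and Nrp1, so a DMA difference for these genes at 24 h was taken against a vehicle group whose own values ran from 9.82 to 11.53, from 5.80 to 9.72 and from 5.13 to 10.20.

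The replicate numbers carried part of the spread. Over all tested probes, same-numbered DMSO and DMA arrays deviated together (correlation of deviations 0.105 to 0.190 at 24 h and 0.276 to 0.335 at 48 h). Among members with 6 values at 48 h, the pair means spread more than the largest pair difference for 3 of 6 (Tek, Tie1 and Nrp1), beside 47.1% of all such probes, and at 24 h for 1 of 9 (Nrp2), beside 29.6%. For Tek at 48 h the pair means spanned 1.57 and the largest pair difference was 0.41, and for Nrp1 they spanned 2.43 against 1.44. With the replicate number as a block, 0 of 10 members passed at either time. The unadjusted p was under 0.05 for 1708 probes at 24 h and 753 at 48 h with this block, against 1071 and 494 without it. Tek at 24 h was the 1 member of that kind under the block (1.63, SE 0.62; limma adjusted p = 0.676).

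Tek and Nrp1 followed each other over the arrays. Their log2 values, centred within each time, correlated at 0.95 over the 12 arrays and at 0.946 without DMA 24 h replicate 3. On each array both genes were read from the same RNA sample under the same scaling. Vegfa and Vegfb correlated at 0.818 over 12 arrays and at -0.304 without that array. Tie1 and Vegfa correlated at -0.837, and at -0.619 without it. These are descriptions over arrays of 4 groups and carry no test.

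Endothelial markers moved with some of the members and against others. The mean of 12 endothelial genes with a value on every array was 9.17, 7.92 and 8.10 with DMSO at 24 h and 9.06, 8.83 and 6.89 with DMA, so DMA 24 h replicate 3 was the lowest. On that array Vegfa, Vegfb and Vegfc were also at their lowest 24 h value, whereas Kdr, Tie1 and Nrp2 were at their highest. At 48 h the endothelial mean was 9.72, 9.50 and 9.29 with DMSO and 9.48, 9.45 and 8.39 with DMA. DMA replicate 3 was again the lowest, as for Kdr, Tek and Nrp1, whereas Flt4 and Vegfa were at their highest 48 h value there. Of 19 endothelial genes tested, 8 were positive and 11 negative at 24 h (median -0.10), and 16 and 3 without DMA 24 h replicate 3 (median 0.62). At 48 h, 1 was positive and 18 were negative (median -0.33), and 5 and 14 without DMA 48 h replicate 3 (median -0.10). None passed an adjusted p of 0.05. Robo4, an endothelial guidance receptor, had the smallest unadjusted p of the list at 24 h, with a difference of 1.33 (SE 0.41; limma adjusted p = 0.871).

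Taken relative to that endothelial mean on the same array, Kdr at 48 h was 2.87 and 3.09 with DMSO and 2.84, 2.69 and 2.86 with DMA. These groups still did not overlap, but the gap between the lowest DMSO and the highest DMA value was small, and the low DMA replicate 3 no longer stood apart. Flt1 at 48 h was -4.54 and -4.83 relative to that mean with DMSO and -6.14, -7.31 and -4.34 with DMA, so on this measure its groups overlapped. For Kdr at 24 h the same measure was 2.37, 1.90 and 2.65 with DMSO and 2.29, 2.77 and 5.40 with DMA. Tie1 on DMA 24 h replicate 3 was likewise 5.47 above the endothelial mean, and 2.14 to 3.16 on the other 24 h arrays. This was not particular to Kdr and Tie1, since the endothelial mean itself was at its lowest there (6.89). Flt1 (-2.82), Flt4 (1.67), Tek (2.78), Nrp1 (2.98) and Nrp2 (2.37) were also at their highest 24 h value on this measure there, and the ligands at their lowest. Tek was 1.29, 0.63 and 0.32 above it with DMSO at 48 h and 1.46, 0.53 and 0.81 with DMA. The part of endothelial content in these differences was not tested.

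The 2 cardiomyocyte markers with 12 values, Myh6 and the calcium release channel Ryr2, averaged 6.56, 4.63 and 5.28 with DMSO at 24 h and 6.15, 5.92 and 5.96 with DMA. At 48 h they averaged 7.82, 6.45 and 6.0 with DMSO and 7.74, 6.70 and 5.87 with DMA. As for Tek and Nrp1, DMSO 24 h replicate 2 was the lowest 24 h array, and replicate 1 was the highest of both 48 h groups for Tek and for this mean. That 48 h order came from Myh6 alone, which read 9.82 with DMSO and 9.43 with DMA on replicate 1. Ryr2 read 5.82, 6.12 and 5.555 with DMSO at 48 h and 6.05, 6.31 and 6.42 with DMA. At 24 h Ttn, the giant sarcomere protein and the third marker tested, did not follow. It read 14.43 on DMSO 24 h replicate 2 and 13.27 to 14.46 on the other 24 h arrays. The low place of that array was not particular to cardiomyocyte markers, since the means of 4 fibroblast genes (8.12) and of 4 macrophage genes (8.56) were also at their lowest of the 24 h arrays there. The part of cell content in the values of Tek and Nrp1 was not tested. The 3 cardiomyocyte genes tested were all positive at 24 h (median 0.49) and 2 were positive at 48 h (median 0.12). Markers of other cells gave no call either, and their counts turned on single arrays. Of 10 pericyte and smooth muscle genes, 6 were positive at 24 h (median 0.08) and 4 at 48 h (median -0.23). Of 8 fibroblast genes, 4 were positive at each time (medians 0.02 and 0.04). At 24 h that count was 6 without DMA 24 h replicate 3 (median 0.70) and 2 without DMSO 24 h replicate 2 (median -0.34), and at 48 h it was 8 without DMA 48 h replicate 3 (median 0.20). Of 7 macrophage genes, 5 were positive at 24 h (median 0.43) and 3 at 48 h (median -0.10; 5 without DMA 48 h replicate 3, median 0.29). All 5 lymphatic genes were negative at 24 h (median -0.77; 2 positive and 3 negative with a median of -0.11 without DMA 24 h replicate 3), and 3 of 5 were positive at 48 h (median 0.12). Of the 8 red cell genes, 2 were tested, 1 positive at 24 h (median 0.11) and 0 at 48 h (median -0.52).

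**Figure D4:**
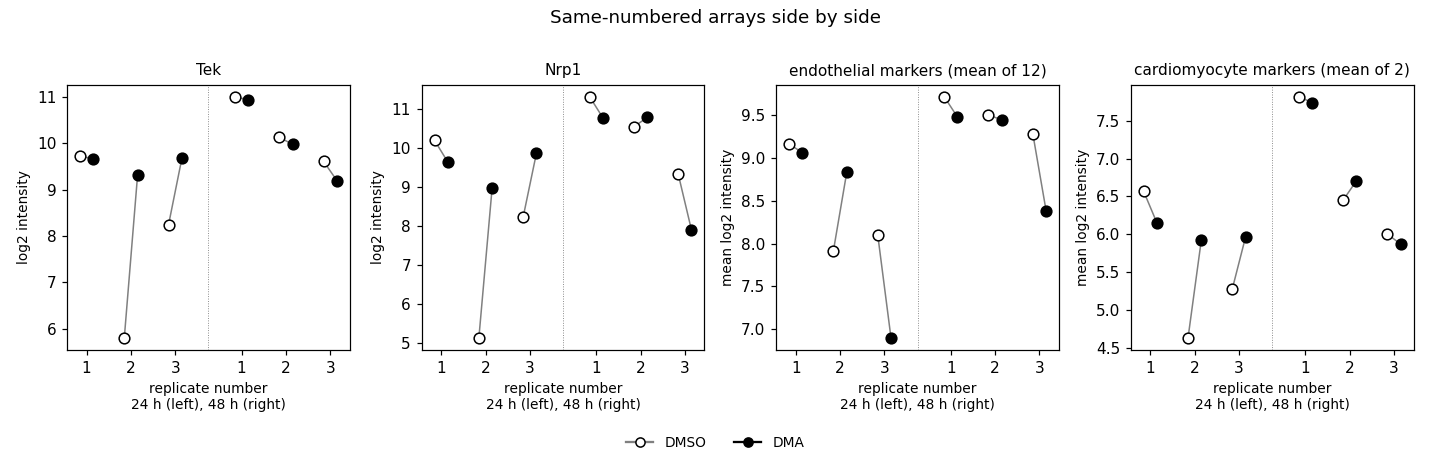
Log2 intensity of Tek and Nrp1 and the mean log2 intensity of 12 endothelial and 2 cardiomyocyte markers on each array, with same-numbered DMSO (open) and DMA (filled) arrays joined, 24 h left and 48 h right of the dotted line. At 48 h the replicate 1 arrays are the highest for Tek in both treatments (11.01 and 10.94) and the replicate 3 arrays the lowest (9.61 and 9.20).

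The other ligands of these receptors were read as well. Of 9 tested, 8 were positive and 1 negative at 24 h (median 0.39; 6 and 3 without DMSO 24 h replicate 2), 3 were positive and 6 negative at 48 h (median -0.08; 7 and 2 without DMA 48 h replicate 3), and 0 passed at either time. Pgf, a placental growth factor that binds Flt1, read 7.34, 5.08 and 5.84 with DMSO at 24 h and 7.30, 7.33 and 7.62 with DMA. Its groups overlapped by a small margin, and the difference was 1.33 (SE 0.54; limma adjusted p = 0.871). Angpt1, the activating ligand of Tek, read 4.95, 0.19 and 1.60 with DMSO at 24 h and 4.57, 5.15 and 3.51 with DMA, a difference of 2.17 (SE 1.17; limma adjusted p = 0.871). Both genes, like Tek and Nrp1, were at their lowest 24 h value on DMSO replicate 2. Angpt2, the context-dependent antagonist of Tek, differed by 0.39 (SE 0.50) at 24 h and -0.013 (SE 0.50) at 48 h. At 48 h the smallest unadjusted p values of this list belonged to Sema3a, a semaphorin that binds Nrp1 (-1.67, SE 0.79), and Sema3d (0.35, SE 0.60), both at limma adjusted p = 1.0. Sema3a read 8.03 on DMSO 48 h replicate 2 and 3.41 to 5.37 on the other 48 h arrays, and its difference was -0.75 without that array. The 24 h differences of Pgf and Angpt1 were 0.83 and 1.14 without DMSO 24 h replicate 2.

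Among 15 tested signalling partners, 11 were positive and 4 negative at 24 h (median 0.12), 6 and 9 at 48 h (median -0.05; 8 and 7 with a median of 0.07 without DMA 48 h replicate 3), and 0 passed. Gipc1, an adaptor of neuropilin 1, differed by 1.37 (SE 0.71) at 24 h and -0.63 (SE 0.64) at 48 h. Ptprb, the endothelial phosphatase that restrains Tek, differed by -2.13 (SE 1.16) at 24 h, with 7.12 on DMA replicate 3, whereas the rest of the 24 h arrays lay at 12.51 to 13.04, and the difference was -0.26 without that array. The differences of Gipc1 were 0.65 at 24 h without DMSO 24 h replicate 2 and -0.0014 at 48 h without DMA 48 h replicate 3. Akt1, the kinase downstream of Tek and Kdr, differed by -0.46 (SE 0.41) at 48 h.

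Of 13 genes known as targets of the pathway, 7 were positive and 6 negative at 24 h (median 0.06; 11 and 2 without DMA 24 h replicate 3, and 5 and 8 without DMSO 24 h replicate 2), 5 and 8 at 48 h (median -0.12), and 0 passed. Hey2, a Notch target in arteries, differed by 0.90 (SE 0.40) at 24 h and Egr3, an early gene induced by VEGF, by 2.18 (SE 1.09), both at limma adjusted p = 0.871. Egr3 read -0.59 on DMSO 24 h replicate 2 and 3.93 to 5.20 on the other 24 h arrays, and its difference was 0.46 without that array. At 48 h Dll4, the Notch ligand of tip cells, differed by -0.79 (SE 0.63) and Adamts1, an antiangiogenic protease, by -1.20 (SE 0.98), and these were -0.47 and -0.35 without DMA 48 h replicate 3.

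Genes that regulate or report hypoxia, a known inducer of Vegfa, gave no call. The 8 regulators were 2 positive and 6 negative at 24 h (median -0.26) and 5 and 3 at 48 h (median 0.09), and the 8 targets 6 and 2 at 24 h (median 0.42) and 4 and 4 at 48 h (median -0.14). Without DMA 48 h replicate 3 the regulators were 3 and 5 at 48 h (median -0.035) and the targets 6 and 2 (median 0.17). Without DMSO 24 h replicate 2 the targets were 5 and 3 at 24 h (median 0.098), and without DMA 24 h replicate 3 the regulators were 3 and 5 (median -0.086). Hif1a, the oxygen-regulated subunit, differed by -1.25 (SE 0.68) at 24 h and read 5.55 on DMA replicate 3 against 8.30 to 9.14 on the other 24 h arrays, the same array on which Vegfa was low, and its difference was -0.29 without it. Egln1, the prolyl hydroxylase that marks it for decay, differed by 1.38 (SE 1.03). Among the targets, the glucose transporter Slc2a1 differed by -1.08 (SE 0.51) and the mitophagy receptor Bnip3 by 0.61 (SE 0.32) at 24 h, each at limma adjusted p = 0.871. At 48 h the smallest unadjusted p values in these lists belonged to Egln3 (0.52, SE 0.52), Egln2 (-0.60, SE 0.61), Adm (-0.83, SE 0.72) and Ddit4 (-0.63, SE 0.65), of which Adm and Ddit4 were -0.13 and 0.18 without DMA 48 h replicate 3.

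For the 5 members with a value on all 12 arrays, the genes most like them were sought among 7370 brighter genes by Pearson correlation of the time-centred log2 values over 12 arrays. Tek was closest to Ell, Nfs1 and Eloa (0.973, 0.972 and 0.971), and Nrp1 to Slc27a1, Nfs1 and Rapgef2 (0.99, 0.978 and 0.974). Nfs1, a cysteine desulfurase, stood in both sets. Tie1 was closest to Nr1d1, Cd6 and Diras2 (0.972, 0.947 and 0.932) and Vegfb to Snx12, Igsf8 and Dpy30 (0.98, 0.977 and 0.977). Vegfa was closest to Mppe1, Emc9 and Eif2b4 (0.998, 0.997 and 0.997), and these fell to 0.93, 0.923 and 0.913 without DMA 24 h replicate 3. Without that array those of Tie1 were 0.928, 0.861 and 0.836, those of Vegfb 0.931, 0.914 and 0.906, and those of Tek and Nrp1 0.97 to 0.99.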

How the data were processed

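Log2 intensities of 36227 probes on 12 one-colour arrays were used as the authors deposited them. Per the labels' protocols, cRNA carrying biotin was made from polyA RNA and detected with streptavidin-Cy5. How background was corrected and values normalized is not given in the sources used here. Probes with at least 2 values in each of 4 groups (35401; 826 left out) entered lmFit and eBayes of limma 3.58.1 (R 4.3.3; 4 groups, Benjamini-Hochberg over all probes, threshold 0.05). The number of arrays limits the precision.

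Symbols came from the platform annotation (21615 probes with 1 symbol, 681 with several, 13931 with none) and coordinates and promoters from RefSeq. Where in a gene its probe lies was not analysed here. The members and gene lists were chosen with earlier results of these data known. Named genes were all members, up to 2 genes per pathway list and time with the smallest unadjusted p, and the 3 most correlated genes of each member with 12 values; other genes in the text serve as markers or were chosen after their values were seen. The labels number replicates 1 to 3, and since every same-numbered pair correlated above 0.1 the numbers were taken as pairs, which comes from the data. Alternatives changed scaling, the arrays fitted, the block, array weights, floor values, the trend along probe numbers and filters. Tables and plots used pandas 2.3.3 and matplotlib 3.10.9 in Python 3.11.15.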

Additional observations from a re-analysis of the deposited data

How the results depend on the processing

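No member passed under any alternative run (smallest limma adjusted p 0.535 at 24 h, 1.0 at 48 h and 0.829 for the difference between the times). Signs never turned for Kdr, Tek, Nrp1 and Vegfa at 24 h, or for Flt1, Kdr and Vegfc at 48 h. The count over all probes was 0 in all 4 comparisons. With single arrays left out it ran from 0 to 14 at 24 h (14 and 9 when replicates 2 and 1 of DMA 24 h were dropped), from 0 to 1 at 48 h, from 0 to 5 for the mean of both times and from 0 to 4 for the difference. It was 3 at 48 h without both DMA 24 h replicate 3 and DMA 48 h replicate 3.

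At 24 h the sign turned for Flt1 with floor values missing (-0.74), with array weights for Nrp2 (-0.44), Vegfb (0.77) and Vegfc (0.073), and without both of those arrays for Nrp2 (-0.24), Tie1 (-0.0028), Vegfb (0.78) and Vegfc (0.036). At 48 h it turned with array weights for Tek (0.0073), Tie1 (0.029) and Nrp1 (0.016), without both arrays for Tek (0.21), Tie1 (0.028) and Nrp1 (0.38), and with the probe trend removed for Flt4 (-0.0086). The difference between the times turned for Tie1 without both arrays (0.030), for Vegfb under quantile normalization (-0.014), weights (-1.02), trend removal (-0.017) and without both arrays (-1.15), and for Vegfc under weights (-0.41) and without both arrays (-0.41).

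With 1 array left out, the 24 h differences ran from -0.74 to 1.87 for Flt1, -0.37 to 0.071 for Flt4, -0.0028 to 0.69 for Tie1, -0.24 to 1.06 for Nrp2, -1.04 to 0.78 for Vegfb and -1.20 to 0.036 for Vegfc. At 48 h they ran from -0.66 to 0.21 for Tek, -0.11 to 0.074 for Tie1, -1.11 to 0.38 for Nrp1, -1.03 to 0.34 for Nrp2, -0.26 to 0.13 for Vegfa and -0.49 to 0.054 for Vegfb. The difference between the times ran from -0.69 to 0.0012 for Tie1, -1.01 to 0.81 for Vegfb and -0.28 to 0.95 for Vegfc. Beyond the arrays left out, the cause was not tested.

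The replicate block changed no call; for Kdr at 24 h it gave 1.05 (SE 0.49; limma adjusted p = 0.676). Its counts at an unadjusted p under 0.05 were 988 for the mean of both times and 1164 for the difference, against 617 and 695. Other counts at that level moved over 1.5 times too. Only 17700 probes, those above the median level, entered 1 alternative, so its counts do not compare directly with counts over 35401. They were 402 at 24 h, 5 at 48 h, 69 for the mean of both times and 123 for the difference. With array weights, over 35401 probes, the counts were 2146, 1040, 1268 and 1500. With only the 6 arrays of a time they were 501 and 778. With 1 array left out they ran from 763 to 3027 at 24 h (3027, 2845 and 1897 without DMA replicate 2, DMA replicate 1 and DMSO replicate 1 of that time), from 452 to 794 at 48 h, from 537 to 1191 for the mean and from 571 to 1108 for the difference. Of the members, the unadjusted level was crossed at 24 h by Tek (block, array weights), by Kdr, Tek and Nrp1 (without DMSO 24 h replicate 1) and by Vegfa (without DMA 24 h replicate 1 or 2). At 48 h it was crossed by Flt1 (the 6 arrays alone, floor values missing, without DMSO 24 h replicate 3). For the difference it was crossed by Kdr under 5 alternatives and by Tek and Nrp1 under 1 of these, without DMSO 24 h replicate 1. Of 35401 probes, these settings gave 1708, 2146, 1897, 2845 and 3027 at 24 h and 778, 509 and 452 at 48 h, in the order named. For the difference, quantile normalization gave 697, and leaving out DMSO 24 h replicate 1, DMA 24 h replicate 1 or DMA 48 h replicate 1 gave 1071, 1108 and 859. The probes above the median level gave 123 of 17700. The mean over all probes of a gene was not run, because each member had 1 probe.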
